A study of Homo sapiens with 46 samples.

Results

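The Eph receptors and ephrins examined here are 10 genes of one cell-contact signalling system, 6 receptors (EPHA1, EPHA2, EPHA4, EPHB2, EPHB3 and EPHB4) and 4 ephrins (EFNA1, EFNB1, EFNB2 and EFNB3). They were taken by gene name from 4 count tables, each built on transcripts assembled from one cell type. The set was chosen by measured values of these libraries, above all by the high EPHA4 level in ectoderm chromatin RNA beside hPSC chromatin RNA. Differences between ectoderm and hPSC chromatin are therefore given for all 10 genes as a description, as is every difference of EPHA4 between ectoderm and hPSC. All 10 genes were in the hPSC (15396 genes), ectoderm (18508) and endoderm (13910) tables. The mesoderm table (15172 genes) held 9, without EPHB2, and the same 9 were among the 10701 genes of all 4 tables.

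RNA was sequenced from H1 human pluripotent stem cells (hPSC), an embryonic stem cell line kept in mTeSR1 medium on Matrigel, and from ectoderm, endoderm and mesoderm cultures derived from it. Ectoderm cells received 2 µM each of A83-01, which inhibits activin and TGF-beta receptors, PNU-74654, which inhibits Wnt signalling, and dorsomorphin, which inhibits BMP receptors, and were collected after 5 days. For endoderm the labels list Activin A at 100 ng/ml and WNT3A at 50 per ml, in a unit that is unclear. For mesoderm they list Activin A at 100 ng/ml for the first 24 hours, BMP4 and VEGF at 100 ng/ml and bFGF at 10 ng/ml. All groups come from the same line, the labels name no genetic change, and the buffers contained alpha-amanitin, an inhibitor of RNA polymerase II. The design text also names actinomycin D, which blocks transcription, but no label of these samples does. Cells were opened with NP-40 to give a cytoplasm fraction and a nuclear pellet. One portion of the pellet was kept whole as the nucleus fraction, and another was lysed with urea and NP-40 into a soluble nucleoplasm and a chromatin pellet. Each of the 4 cell types in 4 fractions makes 16 groups and 46 libraries, with 3 libraries in 15 groups and 1 in mesoderm nucleoplasm. Library totals ran from 4990408 to 21298678 counts. The labels name repeats but no separate cultures, so p-values measure only the spread between these libraries, which may be technical.

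Eph receptors form a large family of receptor tyrosine kinases, and their ligands, the ephrins, sit on the surface of neighbouring cells. A-type ephrins are held to the membrane by a lipid anchor, B-type ephrins cross it, and each class binds mainly the Eph receptors of its own letter. Signals run in both directions and usually drive repulsion or boundary formation, and in the embryo they guide axons, pattern the hindbrain and separate tissue layers and vessels.

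Promoters are shown for the 3 receptors on which the results turn: EPHA4 and EPHB3, which were near zero in hPSC and higher in each derived cell type, and EPHA1, whose level was highest in hPSC cytoplasm. Each line holds the 250 bases before a RefSeq start of the gene, on build GRCh38.p14, written 5′ to 3′ on the strand of the gene. Capitals mark GC boxes (GGGCGG or CCGCCC) and CCAAT boxes (CCAAT or ATTGG), searched as these letters on both strands.
EPHA4 promoter, chr2:221572305-221572554, minus strand: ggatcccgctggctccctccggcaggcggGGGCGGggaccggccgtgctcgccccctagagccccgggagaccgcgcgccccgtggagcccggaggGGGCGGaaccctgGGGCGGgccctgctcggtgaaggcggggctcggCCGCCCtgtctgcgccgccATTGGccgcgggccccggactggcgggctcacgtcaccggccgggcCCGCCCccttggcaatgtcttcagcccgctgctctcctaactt
EPHB3 promoter, chr3:184561535-184561784, plus strand: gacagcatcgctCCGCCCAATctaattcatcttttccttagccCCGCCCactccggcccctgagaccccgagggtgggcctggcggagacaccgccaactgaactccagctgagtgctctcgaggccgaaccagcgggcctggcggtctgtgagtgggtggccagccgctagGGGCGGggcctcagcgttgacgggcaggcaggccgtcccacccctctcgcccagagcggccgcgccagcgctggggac
EPHA1 promoter, chr7:143408857-143409106, minus strand: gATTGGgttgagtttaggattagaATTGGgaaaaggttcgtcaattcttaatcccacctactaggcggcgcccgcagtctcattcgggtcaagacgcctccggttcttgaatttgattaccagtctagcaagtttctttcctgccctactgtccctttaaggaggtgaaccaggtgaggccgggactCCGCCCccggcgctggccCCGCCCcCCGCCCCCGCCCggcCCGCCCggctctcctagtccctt
RefSeq lists 2 starts for EPHA4, and the window shown is the one nearest the deposited annotated transcript, with 5 GC boxes and 1 CCAAT box. The window before the other start, at position 221574202 of chromosome 2, where the annotated gene begins, held 1 GC box and 0 CCAAT boxes. The EPHB3 window held 3 and 1 (the first GC box and the CCAAT box overlap), and the EPHA1 window 5 and 2. Of 35116 RefSeq promoter windows of this length, 42.6% held a GC box and 32.0% a CCAAT box. The starts used lie 14, 1 and 36 bases from the GENCODE release 29 starts of the annotated transcripts in the deposited tables for EPHA4, EPHB3 and EPHA1. Entries were found for 9 of the 10 genes, all but EFNB3. No binding or chromatin-mark data were analysed here, and a match is a description of the letters.

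The genes lie on 7 chromosomes (GRCh38, GENCODE release 29). EPHA1 (ENSG00000146904.8) is at chr7:143390289-143408892 on the minus strand, EPHA2 (ENSG00000142627.12) at chr1:16124337-16156087 minus, EPHA4 (ENSG00000116106.11) at chr2:221418027-221574202 minus and EPHB2 (ENSG00000133216.16) at chr1:22710839-22921500 plus. EPHB3 (ENSG00000182580.2) is at chr3:184561784-184582409 plus and EPHB4 (ENSG00000196411.9) at chr7:100802565-100827521 minus. Among the ephrins, EFNA1 (ENSG00000169242.11) is at chr1:155127460-155134857 plus, EFNB1 (ENSG00000090776.5) at chrX:68828997-68842147 plus, EFNB2 (ENSG00000125266.7) at chr13:106489731-106535662 minus and EFNB3 (ENSG00000108947.4) at chr17:7705202-7711378 plus. The library kit does not mark strand, so reads from EPHA1 and its antisense neighbours ZYX and EPHA1-AS1, from EPHB4 and SLC12A9, and from EPHA4 and EFNB2 and the antisense RNAs beside them cannot be told apart where they overlap.

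Markers of the labels were checked first. Values are CPM, a gene's count divided by the library total and scaled to 1000000. Ectoderm cytoplasm libraries held PAX6 (mean 203 CPM), SIX3 (191) and RAX (262), while ZIC1 was at 0.358 CPM and SOX1 had no entry. Endoderm cytoplasm libraries held SOX17 (158) and GATA4 (162) together with POU5F1 (1765). The other endoderm markers listed were lower: GATA6 was at 103 CPM, EOMES at 50.0, FOXA2 at 25.5, CER1 at 7.00 and CXCR4 at 3.96. HHEX lay between CXCR4 and CER1. Endoderm cytoplasm libraries also held the mesoderm markers TBX3 (124.5) and HAND1 (58.1). A list of 9 mesoderm markers, GATA4 among them, summed to 346 to 457 CPM in endoderm cytoplasm. That was above its sum in mesoderm cytoplasm, 206 to 220 CPM. The cells labelled mesoderm matched their label in part. HAND1 (132 CPM) and TBX3 (72.5) were present, which had no entry and 0.0444 CPM in hPSC, while TBXT was at 0.132 CPM, TBX6 at 3.90 and PDGFRA at 2.98, and MIXL1, MESP1, KDR and GATA4 had no entry in their table. They also held all 5 of a list of trophoblast and amnion markers (GATA3, GABRP and ISL1 among them), summing to 573 to 606 CPM, beside 28.3 to 34.3 in hPSC, 5.10 to 7.15 in ectoderm and 138 to 172 in endoderm. The fractions were checked with mRNAs of the cytoplasm and RNAs that stay in the nucleus. In ectoderm they went against the labels: the cytoplasmic mRNA RPLP0 was lower (log2 difference -0.72) and the nuclear RNA MALAT1 higher (3.04) in libraries labelled cytoplasm than in those labelled nucleus. In hPSC RPLP0 was higher in the cytoplasm (1.55), but so was MALAT1 (1.44). In endoderm RPLP0 was higher (0.80) and the nuclear RNA KCNQ1OT1 lower (-1.70), and in mesoderm RPLP0 was higher (3.20) and KCNQ1OT1 lower (-3.66) in the cytoplasm. Between chromatin and nucleoplasm MALAT1 was lower on chromatin in hPSC (-2.82), ectoderm (-1.73) and endoderm (-1.55), all called, and NEAT1 was lower in hPSC (-2.90). KCNQ1OT1 was higher on chromatin in endoderm (1.39). Fraction and cell type names stand for these labels throughout, and the part of these departures in the results was not tested.

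**Figure D1:**
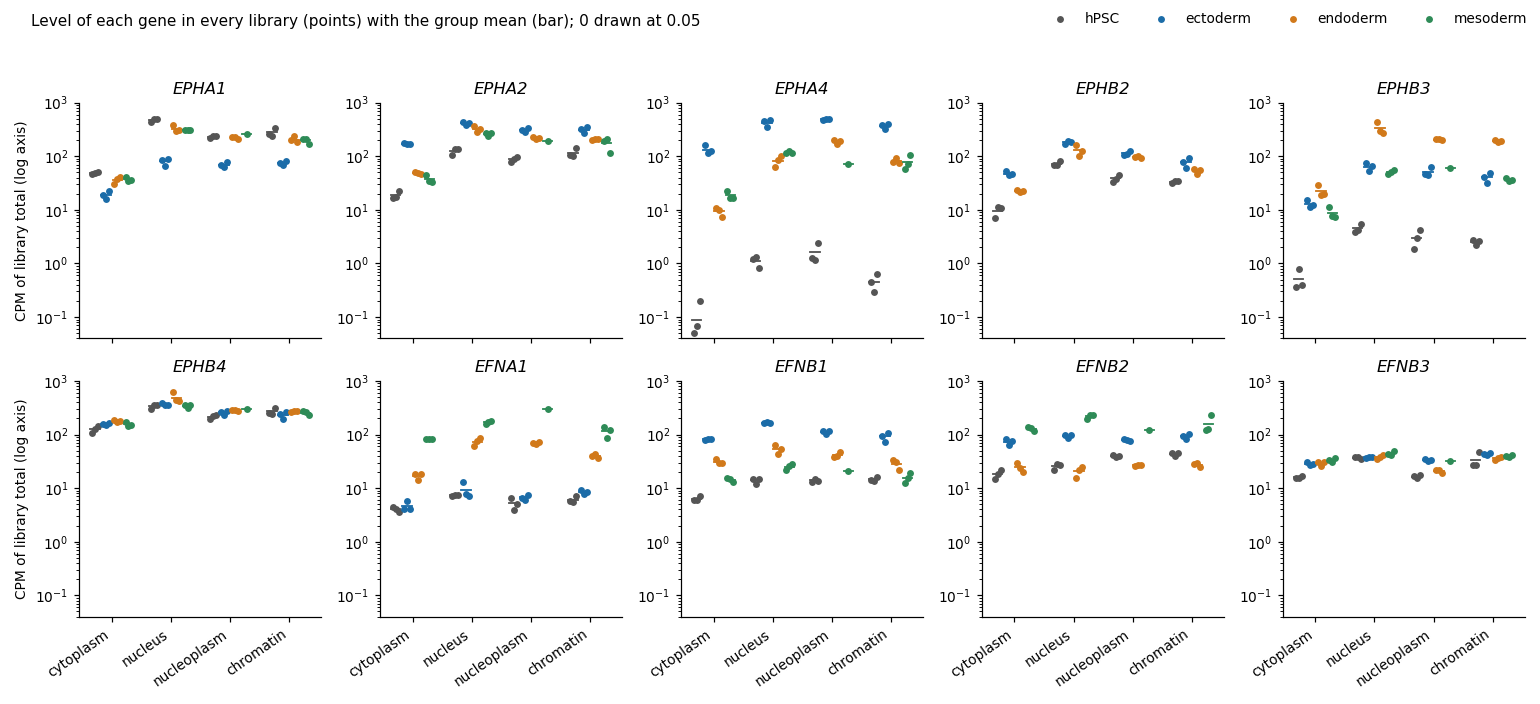
CPM of each of the 10 genes (log axis, share of the library total scaled to 1000000) in the 4 cell types and 4 fractions. Points are libraries, short bars the mean of 3 libraries (1 library in mesoderm nucleoplasm), and values of 0 are drawn at 0.05. EPHA4 and EPHB3 sit lowest in hPSC in every fraction, and EPHB2 has no mesoderm points.

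The question of the first comparison was how the receptors and ephrins differ between hPSC and each derived cell type. In the cytoplasm EPHA2, EPHB3, EFNB1 and EFNB3 rose in all 3 derived cell types, EPHA4 and EFNA1 rose in endoderm and mesoderm, EFNB2 rose in ectoderm and mesoderm, and EPHA1 fell in all 3. These are bulk fractions, so fewer expressing cells and less RNA per cell cannot be told apart. Differences are log2 values of derived cell type minus hPSC from edgeR (TMM scaling), with a gene called at a Benjamini-Hochberg adjusted p under 0.05 over all genes tested. The counts of the 4 assemblies were compared over the genes common to all tables, and the transcripts assembled for a gene can differ between tables. The 3 comparisons share the hPSC libraries.

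In the cytoplasm 6 members rose, 1 fell and 1 did not pass in ectoderm (8 tested, EPHA4 left out), where 38% of the 10673 genes tested were called higher and 37.9% lower. In endoderm 7 of 9 rose, 1 fell and 1 did not pass, against 29.5% of all genes higher and 28.6% lower. In mesoderm 8 of 9 rose and 1 fell, against 34.6% and 33.4%. The median member difference was 1.33 in ectoderm, 1.22 in endoderm and 1.14 in mesoderm on the log2 scale, beside 0.01, 0.00 and 0.00 over all genes. Since the members were chosen from these data, the counts describe the list and do not test it.

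EPHA4, the receptor that binds ephrins of both classes and guides axons, was nearly undetected in hPSC. Its cytoplasm libraries held 0, 0.0668 and 0.199 CPM, which are 0, 1 and 3 counts. In ectoderm cytoplasm it stood at 160, 112.7 and 126.2 CPM, in endoderm at 10.6, 10.1 and 7.33 and in mesoderm at 22.3, 17.0 and 16.7. None of the derived libraries came near the hPSC range, and the order ectoderm, mesoderm, endoderm, hPSC had no overlap between neighbours. The ratio of pooled cytoplasm levels to hPSC was 1256 in ectoderm (95% exact Poisson interval 490 to 4609), 90.3 in endoderm (35.3 to 331) and 179 in mesoderm (69.9 to 657), where the intervals cover counting error only. The edgeR difference was 6.22 in endoderm (SE 0.37, adjusted p = 2.56e-09) and 7.33 in mesoderm (SE 0.34, adjusted p = 1.41e-10).

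On ectoderm chromatin, the measurement that led to the choice of this gene, EPHA4 stood at 382.8, 327.6 and 393.7 CPM, beside 0.443, 0.291 and 0.624 on hPSC chromatin, a ratio of means of 813. Endoderm chromatin held 77.1, 94.7 and 75.6 CPM and mesoderm chromatin 58.9, 71.2 and 104.7, which overlap with each other and not with ectoderm or hPSC. Both stood above hPSC on the log2 scale, by 7.66 in endoderm and 7.51 in mesoderm. The hPSC chromatin libraries in these differences took part in the choice of EPHA4, so the values are a description. In whole nuclei EPHA4 was at 463.9, 344.2 and 468.6 CPM in ectoderm and 1.22, 1.33 and 0.825 in hPSC. In endoderm it was more abundant in the nucleoplasm (203.3, 172.9 and 196.0 CPM) than in the nucleus (62.0, 84.0 and 101.5). The single EPHA4 transcript assembled in hPSC was 0.43 times as long as that of EPHB4, whereas the EPHA4 transcripts of the derived cell types were 1.49 to 1.63 times as long, judged from CPM per TPM. Per length the gap to hPSC was accordingly smaller: the ratio of mean TPM on chromatin was 289 in ectoderm, 51.5 in endoderm and 65.3 in mesoderm. Mean cytoplasm TPM of EPHA4 was 25.4 for ectoderm libraries, 3.38 for mesoderm, 1.59 for endoderm and 0.0533 for hPSC. The cytoplasm count ratios, their intervals and the edgeR differences given above are not corrected for length. Per length those cytoplasm gaps were smaller too.

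EPHB3, which positions cells in the intestinal crypt, was the other receptor near zero in hPSC, at 0.360, 0.802 and 0.398 CPM in the cytoplasm. It stood at 15.1, 11.2 and 12.2 CPM in ectoderm, 29.0, 18.7 and 19.5 in endoderm and 11.2, 7.76 and 7.40 in mesoderm. Endoderm was above ectoderm without overlap, and ectoderm and mesoderm overlapped slightly. The rises were 4.45 in ectoderm (SE 0.31, adjusted p = 4.86e-09), 5.17 in endoderm (SE 0.30, adjusted p = 1.84e-09) and 3.93 in mesoderm (SE 0.31, adjusted p = 4.72e-08). In nuclei the endoderm level was 439.9, 289.8 and 270.1 CPM, beside 3.80, 4.29 and 5.52 in hPSC, 74.3, 52.7 and 65.3 in ectoderm and 47.4, 51.8 and 55.1 in mesoderm. Among the 6 receptors EPHB3 and EPHA4 were the ones below 6 CPM in every hPSC library.

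EPHA2, a receptor of epithelial cells that binds EFNA1, was present in hPSC and rose in every derived cell type. Cytoplasm libraries held 16.3, 17.6 and 22.2 CPM in hPSC, 177.2, 171.6 and 169.1 in ectoderm, 50.8, 49.6 and 47.3 in endoderm and 44.0, 34.8 and 32.7 in mesoderm. The 4 cell types did not overlap, with ectoderm highest. Its edgeR difference was 3.12 in ectoderm (SE 0.12, adjusted p = 1.82e-11), 1.22 in endoderm (adjusted p = 5.82e-07) and 0.92 in mesoderm (adjusted p = 6.91e-06). In the nucleus the rises were 1.76, 1.75 and 0.88. On chromatin EPHA2 rose by 1.02 in endoderm and by 0.70 in mesoderm (adjusted p = 0.0198). The mesoderm chromatin call was lost when hPSC chromatin replicate 1 or 2 or mesoderm chromatin replicate 1 or 2 was left out (0.51 to 0.64, adjusted p 0.0547 to 0.0822).

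EPHA1, the receptor for which the family was first described, went the other way. In the cytoplasm it stood at 47.4, 48.1 and 51.7 CPM in hPSC, 18.6, 16 and 22.4 in ectoderm, 30.1, 38.2 and 40.2 in endoderm and 40.7, 34.8 and 36.1 in mesoderm. No derived library reached the hPSC range, and endoderm and mesoderm overlapped. EPHA1 fell by 1.46 on the log2 scale in ectoderm (SE 0.13, adjusted p = 8.67e-08), by 0.61 in endoderm (adjusted p = 0.000857) and by 0.46 in mesoderm (adjusted p = 0.00506). Tested on log2(TPM + 1) with limma, the endoderm and mesoderm falls no longer passed (-0.33, adjusted p = 0.162, and -0.21, adjusted p = 0.373). The ectoderm fall was larger in the nucleus, -2.52, where hPSC held 429.5, 504.6 and 495.9 CPM and ectoderm 85, 67.2 and 89.2. In mesoderm nuclei EPHA1 fell by 0.80, a difference that was 0.11 in the TPM fit, and in endoderm nucleoplasm it rose by 0.42, which became -0.17, also called, when libraries were scaled by total counts.

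EPHB2, an axon guidance receptor that binds B-type ephrins, could be compared in ectoderm and endoderm only, in fits of those 2 groups that were chosen after seeing the data. Its cytoplasm level was 7.08, 11.2 and 10.6 CPM in hPSC, 52.3, 43.8 and 46.3 in ectoderm and 23.9, 21.4 and 22.6 in endoderm, with no overlap. It rose by 2.17 in ectoderm (SE 0.17, adjusted p = 1.89e-06) and by 1.05 in endoderm (adjusted p = 0.000764) in the cytoplasm, and by 1.42 and 1.29 in the nucleus.

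EPHB4, the receptor of venous endothelium that binds EFNB2, was abundant in the cytoplasm of every cell type and differed least there. Its cytoplasm libraries held 106.4, 128.7 and 143.8 CPM in hPSC, 157.4, 153.7 and 164.9 in ectoderm, 190.2, 170.3 and 177.9 in endoderm and 172.8, 142.9 and 153.5 in mesoderm. Mesoderm overlapped with hPSC. The differences of 0.25, 0.33 and 0.25 passed narrowly (adjusted p = 0.0473, 0.0142 and 0.0482). Without hPSC cytoplasm replicate 1, the lowest library, they were 0.13, 0.17 and 0.11 (adjusted p = 0.197, 0.113 and 0.302). The call was likewise lost for ectoderm without any 1 of 9 further libraries, all but hPSC replicate 3 and ectoderm replicate 1 (adjusted p 0.0535 to 0.138). It was lost for endoderm without hPSC replicate 2 or endoderm replicate 1 (0.0515 and 0.0524), and for mesoderm without any library but hPSC replicate 3 (0.0529 to 0.242). With the replicate number as a block the adjusted p was 0.0609 in ectoderm and 0.0618 in mesoderm.

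EFNA1, the lipid-anchored ligand of EPHA2, showed the widest range of the ephrins in the cytoplasm. There hPSC held 4.44, 4.01 and 3.58 CPM and ectoderm 4.00, 5.72 and 4.06, which overlap (0.14, SE 0.20, adjusted p = 0.525). Endoderm held 18.4, 14.4 and 18.6 CPM and mesoderm 83.3, 84.1 and 82.4, each clear of all other cell types. It rose by 1.94 in endoderm (SE 0.18, adjusted p = 4.45e-07) and by 4.34 in mesoderm (SE 0.18, adjusted p = 5.98e-11). Mesoderm nuclei held 158.0, 171.5 and 179.7 CPM, beside 7.09, 7.54 and 7.29 in hPSC nuclei.

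EFNB1, a transmembrane ephrin encoded on the X chromosome and mutated in craniofrontonasal syndrome, was highest in ectoderm. Cytoplasm libraries held 5.88, 5.88 and 7.10 CPM in hPSC, 79.6, 82.2 and 84.3 in ectoderm, 35.2, 29.4 and 29.3 in endoderm and 15.8, 14.8 and 13 in mesoderm, with no overlap. The rises were 3.62 (SE 0.13, adjusted p = 7.76e-12), 2.14 (adjusted p = 2.33e-09) and 1.14 (adjusted p = 1.92e-06). In mesoderm nuclei the rise was 0.67 (adjusted p = 0.0240), which was lost without hPSC nucleus replicate 2 or mesoderm nucleus replicate 3 (0.59 and 0.60, adjusted p = 0.0828 and 0.0801).

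EFNB2, the ephrin of arterial endothelium and ligand of EPHB4, was highest in mesoderm. Its cytoplasm level was 14.9, 18.7 and 21.5 CPM in hPSC, 82.9, 63.7 and 74.9 in ectoderm, 29.2, 23.8 and 19.9 in endoderm and 139.9, 131.1 and 117.0 in mesoderm. Endoderm overlapped with hPSC (0.22, SE 0.14, adjusted p = 0.185). Per length it did not, with 6.89 to 10.4 TPM in endoderm and 3.22 to 5.98 in hPSC cytoplasm. The EFNB2 transcript assembled in endoderm was 0.80 times as long as that of EPHB4, and the hPSC transcript 0.94 times. The rise was 1.91 in ectoderm (SE 0.14, adjusted p = 8.81e-09) and 2.75 in mesoderm (SE 0.14, adjusted p = 4.18e-10), and in the nucleus 1.92 and 2.94.

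EFNB3, an ephrin of the midline of the spinal cord, rose in the cytoplasm of each derived cell type. It stood at 15.7, 15.6 and 16.7 CPM in hPSC, 31.2, 26.6 and 28.4 in ectoderm, 31.1, 26.1 and 31.3 in endoderm and 32.8, 30.6 and 36.6 in mesoderm. The derived cell types overlapped with each other and not with hPSC. The differences were 0.76 (adjusted p = 2.94e-05), 0.71 (adjusted p = 0.000128) and 1.00 (adjusted p = 2.74e-06). In nuclei the levels were 38.1, 37.5 and 35.7 CPM in hPSC and 37.2, 38.2 and 37.4 in ectoderm, and the difference did not pass in ectoderm (0.09, adjusted p = 0.641) or mesoderm (0.11). The endoderm nuclear difference of 0.41 (adjusted p = 0.0420) became -0.01 with total counts. That call was lost without any 1 hPSC nucleus library, ectoderm replicate 3 or endoderm replicate 1 or 3 (0.30 to 0.45, adjusted p 0.0553 to 0.117).

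**Figure D2:**
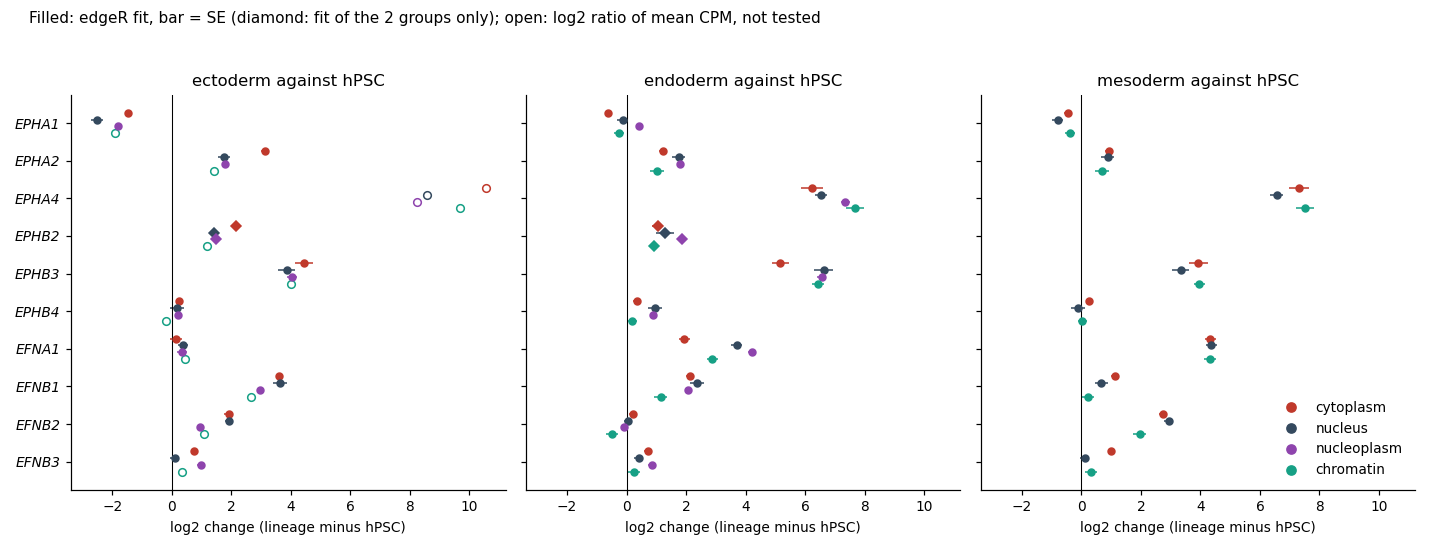
Log2 difference of each derived cell type minus hPSC for the 10 genes in the 4 fractions. Filled points are edgeR differences with their SE, diamonds fits of 2 groups (EPHB2), and open points log2 ratios of mean CPM that were not tested. EPHA1 is below 0 in ectoderm in all 4 fractions, while EPHA4 and EPHB3 are far above 0 in all derived cell types.

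The same tests were made in the nuclear fractions. In the nucleus 4 of 8 members rose in ectoderm and 1 fell, where 28.7% of the 10649 genes tested were called higher and 28.9% lower. In endoderm 7 of 9 rose and none fell, against 28.1% of all genes called higher. Mesoderm nuclei had 6 rises and 1 fall of 9, against 26.1% and 28%. In the nucleoplasm 6 of 8 rose and 1 fell in ectoderm, against 40.1% and 39.5% of 10680 genes, and 8 of 9 rose in endoderm, against 36.9%. On chromatin 5 of 9 rose in endoderm (EPHA2, EPHA4, EPHB3, EFNA1 and EFNB1), against 28.9% of 10669 genes, and 5 of 9 in mesoderm (the same with EFNB2 in place of EFNB1), against 27.1%. EPHA4 is counted here although the hPSC chromatin libraries took part in its choice. The median member difference was 1.06, 1.75 and 0.88 in ectoderm, endoderm and mesoderm nuclei, 0.95 and 1.80 in ectoderm and endoderm nucleoplasm, and 1.02 and 0.70 in endoderm and mesoderm chromatin. Scaling by total counts moved the share of all endoderm calls that were higher from 49.0% to 28.5% in the nucleus and from 47.9% to 24.3% in the nucleoplasm. The ectoderm nucleoplasm rise of EPHB4 (0.22, adjusted p = 0.0167) was lost without hPSC nucleoplasm replicate 1, ectoderm replicate 1 or ectoderm replicate 3 (0.15 to 0.19, adjusted p 0.0664 to 0.123).

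On ectoderm chromatin the levels of the other members are given without a test. EPHB3 had a mean of 40.3 CPM beside 2.51 on hPSC chromatin, a ratio of 16.1, and EFNB1 92.0 beside 14.7, a ratio of 6.25. EPHA2, EPHB2 and EFNB2 stood 2.69, 2.27 and 2.13 times above hPSC, and EFNA1 1.37 times. EPHA1 was 3.72 times lower, at 74.6 CPM beside 278. The libraries of EPHB4 and EFNB3 overlapped. Mesoderm nucleoplasm, a single library that was not tested here, held 293.4 CPM of EFNA1, 261.1 of EPHA1, 120.4 of EFNB2, 70.6 of EPHA4 and 60.1 of EPHB3.

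Levels of different genes were compared per length, as TPM, in which transcript counts are divided by transcript length before scaling to the library. In hPSC cytoplasm EPHB4 led with a mean of 30.6 TPM, followed by EPHA1 at 15.8, each clear of the next. EFNB3 (5.33), EPHA2 (5.09), EFNB2 (4.72) and EFNA1 (3.08) overlapped as neighbours, and EPHB3 (0.157) and EPHA4 (0.0533) were last. In ectoderm EPHA2 (55.1) and EPHB4 (45.0) led and overlapped, ahead of EFNB1 (31.3), EPHA4 (25.4) and EFNB2 (18.2), whose neighbours also overlapped. Endoderm had EPHB4 (49.7) first, 7 genes between 15.1 (EFNA1) and 6.91 (EPHB3) whose neighbours overlapped, and EPHA4 last at 1.59. In mesoderm EFNA1 (71.2) led, followed by EPHB4 (42.2) and EFNB2 (30.2), the 3 without overlap. Of the 4 ephrins among the members, EFNB1 had the highest mean TPM in ectoderm and EFNA1 the highest in mesoderm; other ephrins were not ranked.

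**Figure D3:**
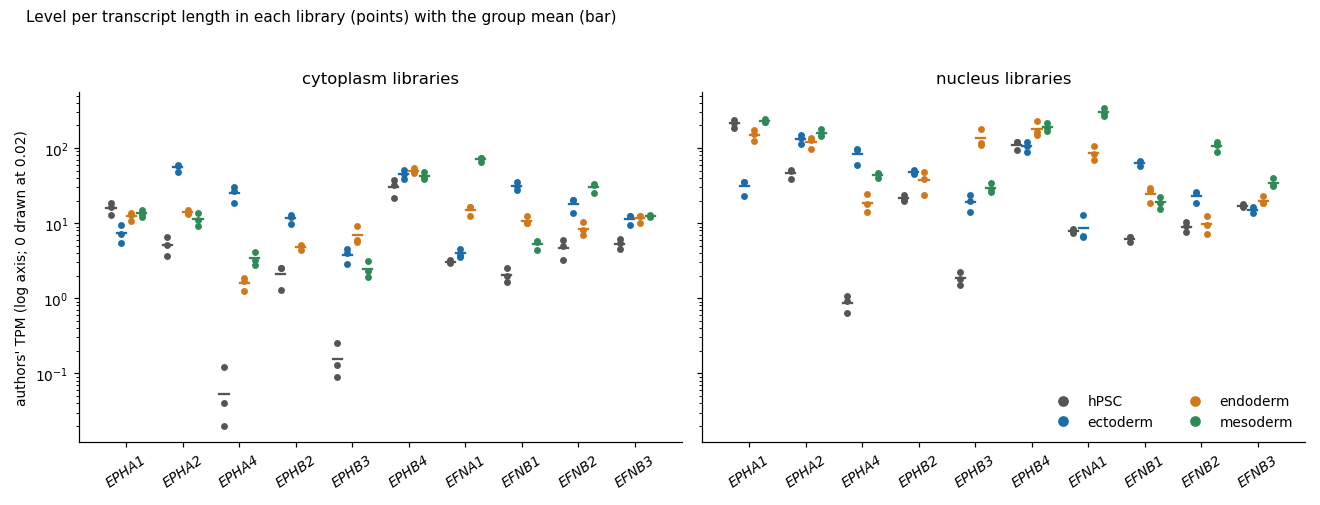
TPM (abundance per transcript length, log axis) of each gene in cytoplasm and nucleus of the 4 cell types. Points are libraries, and values of 0 are drawn at 0.02. EPHB4 is among the highest genes in each cytoplasm panel, and EFNA1 is highest in mesoderm cytoplasm.

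The second comparison asked how the relative level of these genes differs between the fractions. CPM, TPM and the scaled differences are relative to each library, so they do not give RNA amounts per fraction. Every member was called lower in the cytoplasm than in the nucleus in hPSC (10 of 10), ectoderm (10 of 10) and endoderm (10 of 10), and 8 of 9 in mesoderm, all but EFNB3 (-0.32, adjusted p = 0.067). Of all genes tested, 30.4% of 14150 were called lower in hPSC, 26.5% of 15979 in the ectoderm libraries, 35.5% of 12800 in endoderm and 31.5% of 14533 in mesoderm. Receptor medians lay below ephrin medians in each cell type. The median log2 difference of cytoplasm minus nucleus was -3.05 for receptors and -1.08 for ephrins in hPSC, -2.16 and -1.03 in ectoderm, -3.65 and -1.32 in endoderm and -2.57 and -0.67 in mesoderm, beside medians between 0.00 and 0.10 over all genes. The difference between receptors and ephrins was not tested. With total counts, the share of calls higher in the cytoplasm moved from 50.7% to 76.4% in ectoderm and from 49.2% to 71.4% in endoderm. The negative direction held for all members in all alternatives run, except EFNB2 in endoderm, which was 0.22 with total counts. In the TPM fit the ectoderm calls of EFNB2 (-0.35, adjusted p = 0.204) and EFNB3 (-0.38, adjusted p = 0.121) were lost. The endoderm call of EFNB2 was lost with upper-quartile scaling (-0.23, adjusted p = 0.217) and in the TPM fit (-0.16, adjusted p = 0.541).

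EPHA1 had a cytoplasm level of 10.3% of its nuclear CPM in hPSC. The same ratio of CPM was 23.6% for ectoderm, 11% for endoderm and 12.1% for mesoderm. EPHA2 stood at 14.8%, 42.1%, 15.3% and 14.3%. EPHB3 in endoderm had the lowest ratio, 6.71%, with a difference of -4.69 on the log2 scale. EPHB4, the most abundant receptor in hPSC cytoplasm, stood between 36.8% and 45.4%. EFNB2 stood at 58.7% to 116.6% and EFNB3 at 43.1% to 77.8%. EFNB2 had differences of -0.55, -0.68, -0.47 and -0.66 in hPSC, ectoderm, endoderm and mesoderm. In endoderm its cytoplasm CPM was above the nuclear CPM although the TMM-scaled difference was negative. Its endoderm call (adjusted p = 0.0178) was lost without endoderm nucleus replicate 3 or cytoplasm replicate 2 or 3 (-0.34 to -0.45, adjusted p 0.0513 to 0.0914). The mesoderm call (adjusted p = 0.02) was lost without mesoderm nucleus replicate 2 or 3 or cytoplasm replicate 3 (adjusted p 0.0531 to 0.0691).

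**Figure D4:**
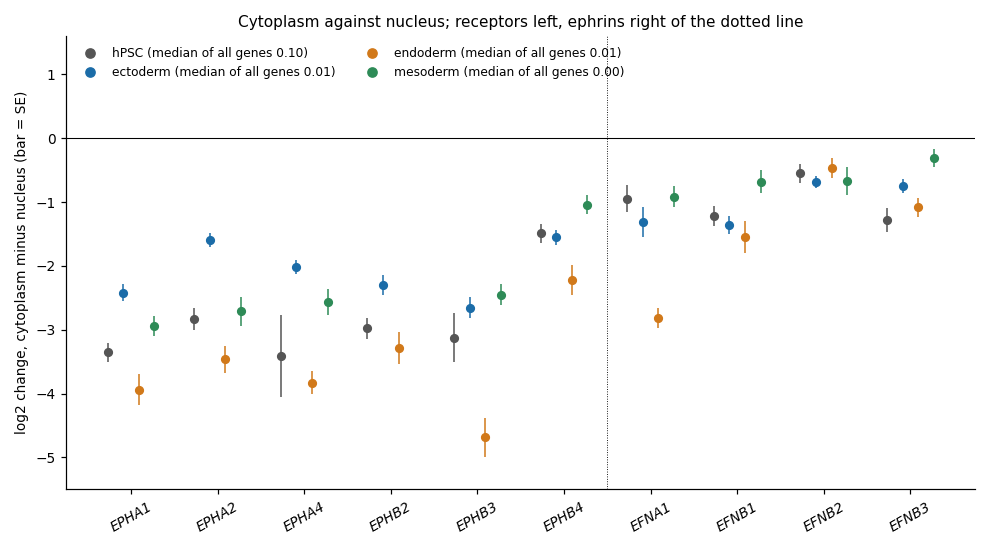
Log2 difference of cytoplasm minus nucleus for each receptor (left) and ephrin (right) in the 4 cell types, with SE. All points lie below 0, from -0.32 (EFNB3 in mesoderm) to -4.69 (EPHB3 in endoderm).

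Whether this difference between fractions changed with cell type was tested as an interaction over 10681 genes. Against hPSC, 3 of 8 members had a higher cytoplasm-to-nucleus ratio in ectoderm and none a lower one, where 27.4% of all genes were called higher. They were EPHA2 (1.43, adjusted p = 5.05e-05), EPHA1 (1.12, adjusted p = 0.000441) and EFNB3 (0.73, adjusted p = 0.0018). In endoderm 2 of 9 were lower, EFNA1 (-1.79, adjusted p = 4.31e-05) and EPHB3 (-1.48, adjusted p = 0.0403), against 18.3% of all genes. In mesoderm EFNB3 alone was higher (1.03, adjusted p = 0.000347), against 18.7%. In the TPM fit that value was 0.12 (adjusted p = 0.672), and EPHA4 (-2.55), EPHA2 (-0.76), EFNA1 (-0.94) and EPHB3 (-1.86) were called lower in mesoderm instead. The ectoderm fraction controls given above ran against their labels, and the part of that in the ectoderm values was not tested. All ectoderm ratios here follow the labels, and exchanging the cytoplasm and nucleus labels would turn the sign of each ectoderm cytoplasm-minus-nucleus difference. Total counts moved the share of higher calls among all endoderm genes from 51.8% to 90.0%, and upper-quartile scaling moved it to 68.8%; in mesoderm total counts moved it from 73.1% to 36.8%.

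Chromatin was compared with nucleoplasm in the 3 cell types with 3 libraries of each, in which the nuclear RNA MALAT1 was lower on chromatin; its part in these values was not tested. In ectoderm 5 of 10 members were lower on chromatin (EPHB2 -0.87, EPHA4 -0.69, EPHB3 -0.65, EFNB1 -0.58 and EPHB4 -0.44) and none was higher, against 25.6% of all genes lower. In the TPM fit the values of EPHA4, EPHB3, EFNB1 and EPHB4 turned to 0.07, 0.11, 0.17 and 0.32. In endoderm 9 of 10 were lower, from -1.79 for EPHA4 and -1.44 for EPHB2 to -0.55 for EFNB2, against 30.6%, with EFNB3 at 0.20 and not called. There EFNB2 turned to 0.03 with total counts and to 0.09 in the TPM fit, and EPHB4 to 0.01 in the TPM fit. With total counts the endoderm calls of EPHA1 (-0.12), EPHA2 (-0.07), EPHB3 (-0.09) and EPHB4 (-0.06) were lost (adjusted p 0.50 to 0.716), as were the ectoderm calls of EPHA4 (-0.40), EPHB3 (-0.35), EFNB1 (-0.29) and EPHB4 (-0.14), at adjusted p 0.0521 to 0.373. In the TPM fit the endoderm calls of EPHA1 (-0.06), EPHA2 (0.00), EPHB3 (-0.03) and EFNB1 (-0.47) and the ectoderm call of EPHB2 (-0.22) were lost as well. In hPSC EFNB3 was higher on chromatin than in the nucleoplasm (0.82, adjusted p = 0.00624), against 17.1% of all genes. EPHA4 (-2.05) and EPHB2 (-0.43, adjusted p = 0.0461) were lower, against 13.3%. EPHB2 was 0.14 in the TPM fit and -0.19, not called, with total counts. EPHA4 is counted in ectoderm and hPSC although their chromatin libraries took part in its choice, so its values there are a description. Its hPSC chromatin libraries held 4 to 8 counts, and its only hPSC transcript was not called (-2.08, adjusted p = 0.108). With total counts the share of higher calls moved from 41.9% to 71.0% in ectoderm, 42.8% to 73.8% in endoderm and 56.2% to 86.5% in hPSC. The ectoderm calls of EFNB1 and EPHB4 were lost without chromatin replicate 2 (-0.38 and -0.27, adjusted p = 0.062 and 0.134), and that of EPHB4 also without chromatin replicate 1 (-0.37, adjusted p = 0.0778). In endoderm EPHA1 lost its call without chromatin replicate 3 (-0.61, adjusted p = 0.057), and EPHB3 and EPHB4 without any 1 of the 6 libraries (adjusted p 0.0517 to 0.0963). For EPHB2 in hPSC the call was lost without any 1 nucleus or nucleoplasm library, chromatin replicate 1 or 2, or cytoplasm replicate 3 (adjusted p 0.054 to 0.122).

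Single transcripts were tested in the same way. Between cytoplasm and nucleus 10 of 12 member transcripts were lower in hPSC (20% of 28897 transcripts tested), 13 of 17 in ectoderm (6.62% of 41708), 13 of 15 in endoderm (22.9% of 26389) and 6 of 11 in mesoderm (16.8% of 34688). On chromatin against nucleoplasm 7 of 17 were lower in ectoderm (9.37% of all). The EPHA4 transcript is among those lower in ectoderm, where the chromatin libraries took part in the choice of the gene. In endoderm 10 of 15 were lower and 1 higher (18.1% and 11.8%), and 1 of 12 was higher in hPSC (6.08%). Total counts moved the share of higher calls from 51.5% to 75.1% in ectoderm, 45.7% to 60.6% in endoderm and 47.6% to 32.0% in mesoderm for cytoplasm against nucleus. For chromatin against nucleoplasm it moved from 32.5% to 69.1%, 39.4% to 76.0% and 62.4% to 90.6% in ectoderm, endoderm and hPSC. In endoderm 3 EPHB3 transcripts were assembled. One of them averaged 6.11 CPM in the nucleus and had 0 counts in all 3 cytoplasm libraries, at least 34.3-fold lower against a floor of 3 counts per library. The other two were lower in the cytoplasm by -4.45 and -4.22 on the log2 scale.

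The transcripts that made up EPHA2 counts differed in share between cell types, an observation chosen after its values were seen. Each cell type has its own assembly, so these shares also depend on which transcripts were assembled there. The division of reads between transcripts of a gene is less certain than their sum. The annotated transcript ENST00000358432.8 was in all 4 tables. Transcripts that carry no Ensembl identifier, and so match no annotated transcript, took 63.5% of EPHA2 counts in ectoderm cytoplasm (59.7% to 68.8%) and 43.2% in ectoderm nuclei (40.2% to 48.8%). Endoderm stood at 35.5% in the cytoplasm (26.4% to 42.7%) and 10.0% in the nucleus (8.53% to 12.1%), and mesoderm at 1.93% and 2.45%. In hPSC the mean was under 1% in every fraction, from 0.55% to 0.93%. In ectoderm the annotated EPHA2 transcript (ENST00000358432.8) was lower in the cytoplasm by -2.23 (SE 0.13) and the one without an identifier by -1.06 (SE 0.17), both called, and the difference between them was not tested. EPHB2 behaved less evenly, with 58.9% of hPSC cytoplasm counts in such a transcript but a range of 5.99% to 100% over the 3 libraries.

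**Figure D5:**
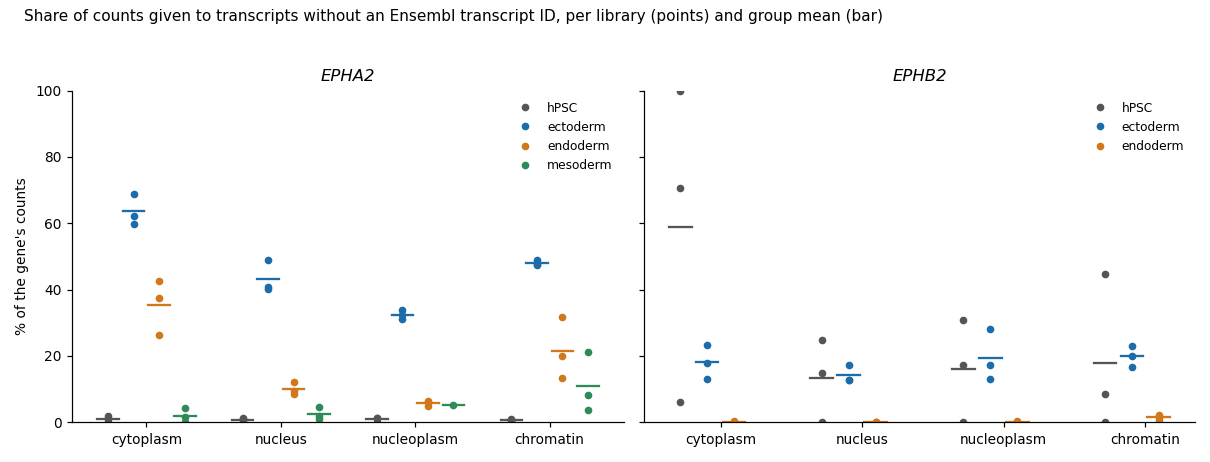
Percent of EPHA2 (left) and EPHB2 (right) counts in assembled transcripts without an Ensembl transcript identifier, by cell type and fraction, with points for libraries. For EPHA2 the ectoderm cytoplasm libraries are highest and hPSC and most mesoderm libraries lie near 0, while for EPHB2 the hPSC cytoplasm libraries are spread over nearly the whole axis.

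Genes whose pattern over the 15 groups with 3 libraries was most like that of EPHA4 were found by Pearson's r of group mean log2(CPM + 1) among 10201 genes. They were C6orf89 (0.966), NRXN3 (0.955), ZNF436-AS1 (0.937), PGAP1 (0.934) and FZD1 (0.926). Among the members EFNB1 came closest (0.842), followed by EPHB3 (0.801) and EPHA2 (0.772), and EPHA1 was at -0.172. These r values are descriptions, since the groups share cell types and preparations.

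Downstream genes of Eph and ephrin signalling were taken from a list of 45 (kinases of the Src and Abl families, regulators of small GTPases, ROCK and PAK kinases and adaptor genes), of which 41 were tested. In the cytoplasm 24 rose and 8 fell in ectoderm, where 38% and 37.9% of all genes did, with a median of 0.51 beside 0.01. In endoderm 20 rose and 6 fell, against 29.5% and 28.6% of all genes, with a median of 0.32. In mesoderm 22 rose and 7 fell, against 34.6% and 33.4%, with a median of 0.31. In endoderm the list median was above that of all genes in the cytoplasm only. It was -0.28 in the nucleus, -0.17 in the nucleoplasm and -0.19 on chromatin, beside -0.05, -0.06 and -0.07 over all genes. There 11, 11 and 14 of the 41 rose, where 28.1%, 36.9% and 28.9% of all genes did. A fall was called for 15, 20 and 16, where 3121 of 10649, 4294 of 10680 and 3516 of 10669 genes fell. In ectoderm the median was 0.72 in the nucleus and 0.27 in the nucleoplasm, and in mesoderm 0.45 in the nucleus and 0.26 on chromatin. In ectoderm ITSN2, an exchange factor for CDC42, rose by 3.09 and ROCK1, a kinase that acts on the actin cytoskeleton, by 2.76, while the Src family kinase LYN (-0.95) and the Rac GTPase-activating protein CHN1 (-1.61) fell. In endoderm KALRN (2.09) and SRC (1.27) rose and ROCK1 (-1.69) and ABL2 (-2.86) fell, and in mesoderm CHN2 (3.35) and ITSN2 (2.89) rose and CHN1 (-0.47) and PAK1 (-0.82) fell. ROCK1 thus was called in opposite directions in ectoderm and endoderm. Of 12 further receptors and ephrins 3 could be tested in the cytoplasm: EPHB6 fell in ectoderm (-2.50) and rose in endoderm (0.55) and mesoderm (1.11), EFNA4 rose in endoderm (0.58) and mesoderm (0.53), and EFNA3 fell in both (-0.90 and -1.37). EFNA5, an axon guidance ephrin with no entry in the hPSC table, held 60.2 to 75.1 CPM in ectoderm cytoplasm. Endoderm cytoplasm held 18.6 to 24.3 CPM of it and mesoderm cytoplasm 9.62 to 12.1.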

How the data were processed

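RNA-seq of 46 libraries (4 cell types, 4 fractions) was analysed from the 4 own-assembly count tables among 10 deposited tables. The TPM tables of the same assemblies served for levels per length and the TPM fit. The count table of the combined assembly served for an alternative. Per the submitters' processing notes the authors used STAR, RSEM and hg38; versions and the assembler are not given in the sources used here. The deposited values are estimated counts per transcript, rounded to whole numbers by the authors (1907 of 286995 zero counts had a TPM above 0), and TPM, which the authors deposited beside them. Columns matching no sample (2) were not used.

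For the gene tests transcript counts were summed per Ensembl gene identifier, or per assembled gene where no identifier was given. For the levels of named genes they were summed per gene name. Groups followed the labels. edgeR 4.0.16 (R 4.3.3; TMM, filterByExpr with a minimum count of 10, quasi-likelihood F test) was fitted per fraction over all 4 cell types, within each cell type over its fractions, and for the interaction, with Benjamini-Hochberg adjustment over all features and a threshold of 0.05. SE is the log2 difference divided by the root of F. TPM was tested as log2(TPM + 1) with limma 3.58.1, and DESeq2 1.42.0 was another alternative. Other alternatives were total-count and upper-quartile scaling, no filter, a 2-fold threshold, fits of 2 groups, an assembly of all cell types combined, the replicate block, and each library left out. The scripts were tested on simulated data. CPM and summaries used pandas 2.3.3, and the floor was 3 counts. Depth of 4990408 to 21298678 counts makes 1 count at most about 0.2 CPM.

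Members and lists were chosen with earlier results of these data known. The genes named are the 10 members; up to 12 transcripts with a mean of at least 5 CPM, largest change first; the 5 genes most like EPHA4; and per cytoplasm comparison up to 2 rises and 2 falls of the pathway list with a mean of at least 10 CPM and no overlap. No 2 of 45 replicate pairs were identical (lowest chi-square per degree of freedom 4.574). Ectoderm against hPSC on chromatin was not tested.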

Additional observations from a re-analysis of the deposited data

Results flagged for a closer look

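For 6 member results the difference between cytoplasm and nucleus was itself different between a derived cell type and hPSC, by the interaction test in edgeR with 3 libraries in each of the 4 groups. Such calls were common among the 10681 genes tested. In ectoderm 2923 were called higher and 2625 lower, in endoderm 2102 and 1959, and in mesoderm 1999 and 735. Members called were 3 of 8, 2 of 9 and 1 of 9 in this order. The values below are log2 differences of the cytoplasm-to-nucleus ratio, derived cell type minus hPSC. In ectoderm EPHA2 stood at 1.431 (adjusted p = 5.05e-05), EPHA1 at 1.123 (adjusted p = 0.000441) and EFNB3 at 0.7318 (adjusted p = 0.0018). RPLP0 and MALAT1 ran against the fraction labels in the ectoderm libraries, and their part in these values was not tested.

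In endoderm EFNA1 stood at -1.792 (adjusted p = 4.31e-05) and EPHB3 at -1.479 (adjusted p = 0.0403). The EPHB3 call was lost without hPSC nucleus replicate 1 or 2, hPSC cytoplasm replicate 2, endoderm nucleus replicate 1 or endoderm cytoplasm replicate 2 or 3 (-0.97 to -1.45, adjusted p 0.0587 to 0.311), and with total counts (-0.91, adjusted p = 0.121) or upper-quartile factors (-1.29, adjusted p = 0.059). In mesoderm EFNB3 stood at 1.026 (adjusted p = 0.000347), which was 0.125 in the TPM fit (adjusted p = 0.672).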

How the results depend on the processing

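For 213 results 4368 alternative values were computed, of which 4121 kept direction and side of the threshold, 165 lost the call, 60 gained one and 22 reversed; where none is stated, the cause was not tested. Total counts gave -0.168 for EPHA1 (endoderm nucleoplasm), -0.0072 for EFNB3 (endoderm nucleus), and for EFNB2 in endoderm 0.223 (cytoplasm against nucleus) and 0.0276 (chromatin against nucleoplasm). The TPM fit gave in mesoderm nuclei 0.113 for EPHA1 and 0.775 for EPHB4, and in the mesoderm interaction -2.55 for EPHA4, -0.76 for EPHA2, -0.943 for EFNA1 and -1.86 for EPHB3. For chromatin against nucleoplasm it gave in ectoderm 0.169 (EFNB1), 0.0714 (EPHA4), 0.668 (EFNB2), 0.478 (EPHA2), 0.56 (EPHA1), 0.114 (EPHB3) and 0.32 (EPHB4), in endoderm 0.0895 (EFNB2) and 0.00694 (EPHB4), and in hPSC 0.136 (EPHB2), 0.507 (EFNA1) and 0.569 (EPHA1 transcript). Total counts moved the median of all genes by 0.71 in endoderm for cytoplasm against nucleus and by -0.64 for endoderm against hPSC nucleoplasm. The TPM fit moved it by -0.82 for mesoderm cytoplasm against nucleus and by 0.78 for mesoderm against hPSC nuclei.

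Requiring at least a 2-fold difference left 9 of 15 member calls in nucleoplasm, 5 of 17 and, for transcripts, 10 of 19 between chromatin and nucleoplasm. Total counts left 9 and 12 of these last. The TPM fit raised the interaction calls from 6 to 12. With each library left out in turn, calls ranged over 21 to 24 in cytoplasm, 17 to 19 in nucleus, 14 to 16 in nucleoplasm, 9 to 12 on chromatin, 37 to 39 for cytoplasm against nucleus, 14 to 17 for chromatin against nucleoplasm, 5 to 10 for the interaction, and 40 to 43 and 15 to 19 for transcripts. Deviations of same-numbered libraries from their group means correlated with r from -0.574 to 0.404. With 3 libraries per group such values cannot decide whether the numbers pair the libraries, and pairing remains possible. With the replicate block the calls were 22, 18, 15, 10, 38, 17, 7, 42 and 18 in this order, where the fits without it gave 24, 19, 15, 10, 38, 17, 6, 42 and 19. Depth limits EPHA4 in hPSC cytoplasm, at 0 to 3 counts a library.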
